A study of Homo sapiens with 6 samples.

Results

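Neurotensin, its receptors and 6 marker genes of neuroendocrine cells were examined in PC-3 tumors from mice given vehicle or WCE, a standardized extract of the herb Wedelia chinensis. The 9 genes are NTS, NTSR1, SORT1, CHGA, CHGB, SYP, NCAM1, SCG2 and SCG5, and each matched 1 of the 24000 gene entries of the deposited table by its symbol. The 9 genes were proposed from the comparison of WCE-treated with vehicle-treated tumors in this same table, and not independently of it. NTS drew attention because its WCE-treated tumors stood higher than its vehicle-treated tumors. The other genes have a known tie to neurotensin or to neuroendocrine cells. The difference between the groups in these 9 genes is therefore given as a description, with no test.

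The PC-3 line was derived from human prostate cancer and grows without androgens, and xenografts of it in nude mice were sequenced here, with 3 vehicle-treated and 3 WCE-treated tumors. The labels give a treatment of 10 weeks for both groups, and neither a dose nor the age of the mice, and the study's text describes PC-3 tumors under other durations and more than one dose, so the regimen of these 6 tumors is not settled. Per the study's methods the mice were male athymic animals, obtained at an age of 6 weeks, whose anterior prostate received luciferase-carrying cells. All 6 tumors thus come from the same cell line in a host without mature T cells. The values are FPKM, numbers of sequenced fragments scaled to transcript length and to the mapped fragments of the library, which allow levels of different genes to be compared per length.

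Neurotensin is a short peptide of brain and gut that is cut out of a larger precursor, stored in vesicles and released. Its main receptor, NTSR1, is coupled to Gq proteins, phospholipase C and protein kinase C, and has been studied as a growth signal in prostate cancer cells. Neuroendocrine cells are recognized by the granins of their secretory vesicles and by vesicle proteins such as synaptophysin, and prostate tumors can take on such features after androgen withdrawal.

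The stretch of NTS that encodes its active peptides is shown because the transcript that carries it had the widest relative spread over the tumors among the genes of this group with a mean of at least 0.5 FPKM. It covers codons 141 to 165 of 170 and lies in exon 4 of 4 of transcript NTS-201 of GENCODE 29, on chr12:85882283-85882357 of GRCh38, plus strand, a later build than the hg19 of the table's loci. Capitals mark the 3 pairs of adjacent lysine and arginine codons at which prohormone convertases cut the precursor.
NTS coding stretch: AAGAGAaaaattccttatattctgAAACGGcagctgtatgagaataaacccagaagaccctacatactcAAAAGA
The 6 codons between the first pair and the next encode neuromedin N, a related peptide, and the 13 codons between the last pairs encode neurotensin itself.

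A property of the libraries touches each result. Vehicle replicate 3 and WCE replicate 1 were nearly the same, with a median absolute log2 difference of 0.0276 over 1915 entries at a mean of at least 50 FPKM, whereas the other 14 pairs differed by 0.0950 to 0.247. Each of the 15805 entries detected in WCE replicate 1 was also detected in vehicle replicate 3. Their labels give different treatments, so both were kept as labeled and values are also given without them. Whether the reads of WCE replicate 1 are a part of those of vehicle replicate 3, or a label was mixed up, was not tested. The SDs, standard errors and p-values from all tumors treat these libraries as separate tumors and hold only if they are. Relative to vehicle replicate 3, set to 100%, the depth read from the steps between low FPKM values was 64.8% and 75.5% in vehicle replicates 1 and 2, and 25.03%, 85.2% and 80.2% in WCE replicates 1, 2 and 3.

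NTS, listed at chr12:86268073-86276770 (hg19), measured 1.11, 0.891 and 1.92 FPKM in vehicle replicates 1, 2 and 3 and 2.15, 8.04 and 2.80 FPKM in WCE replicates 1, 2 and 3. Every WCE-treated tumor lay above every vehicle-treated tumor, and WCE replicate 2 lay far above the rest. The group means were 1.31 ± 0.544 and 4.33 ± 3.23 FPKM (SD, n = 3 each), a ratio of 3.31, and the spread among WCE-treated tumors was nearly as large as their mean. On the log2(FPKM + 1) scale, which understates changes of low genes, the difference was 1.07 with a standard error of 0.38. The groups did not overlap, higher in WCE, in 6.37% of the 13287 entries with a mean of at least 0.5 FPKM, and nothing is read from this for a gene chosen by the same contrast.

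The lowest margin between the NTS groups was that between the nearly identical libraries, at 1.92 FPKM in the first and 2.15 FPKM in the second. Without this pair the means were 0.999 FPKM for vehicle and 5.42 FPKM for WCE (n = 2 each), and the log2 difference was 1.55. Without WCE replicate 2 it was 0.61, the lowest value reached when a single tumor was left out, and without WCE replicate 1 it was 1.37, the highest. The size of the NTS difference thus depended more on WCE replicate 2 than on any other single tumor. Its direction could not change with tumors left out, because the groups did not overlap, so nothing is read from it.

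NTS stood on few fragments. Because each FPKM value of a low gene with a single transcript is a whole multiple of what 1 fragment is worth, the values of a gene in the 6 tumors can be turned into the smallest set of whole numbers that fits them all. For NTS these were 16, 15 and 43 fragments in the vehicle-treated tumors and 12, 153 and 50 in the WCE-treated tumors, with no tumor more than 0.0588 of a fragment from a whole number. The NTS level of WCE replicate 1, the shallowest library, therefore rested on 12 fragments, each worth 0.179 FPKM, whereas in WCE replicate 2 each was worth 0.0525 FPKM. These numbers are relative, since a multiple of all 6 would fit as well.

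**Figure D1:**
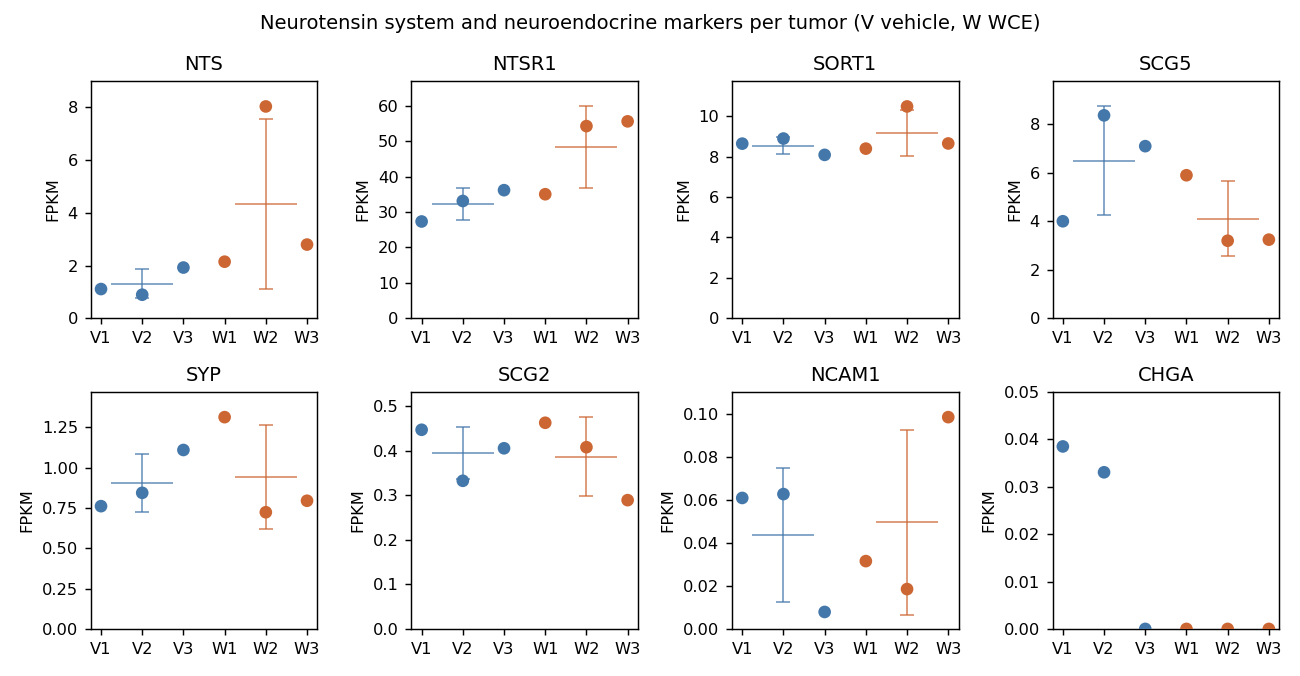
FPKM (vertical axes, linear, from 0) of 8 of the 9 genes in vehicle replicates 1 to 3 (V1 to V3, blue) and WCE replicates 1 to 3 (W1 to W3, orange). Points are single tumors and bars the group mean with its SD (n = 3), left out for CHGA, and CHGB is not drawn because it was at 0 in each tumor. NTS reached 8.04 FPKM in WCE replicate 2, and NTSR1 stood at 54.3 and 55.6 FPKM in WCE replicates 2 and 3.

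The receptor transcript was far more abundant than that of its ligand. NTSR1, at chr20:61340189-61394123 (hg19), measured 27.3, 33.1 and 36.2 FPKM with vehicle and 35.0, 54.3 and 55.6 FPKM with WCE, in the order of the replicate numbers kept throughout. WCE replicates 2 and 3 were above all other tumors, but WCE replicate 1 lay below vehicle replicate 3, so the groups overlapped. The means were 32.2 ± 4.49 and 48.3 ± 11.5 FPKM (SD, n = 3 each), with a log2 difference of 0.55 and a standard error of 0.19. The overlap came from the nearly identical libraries, and without them the means were 30.2 and 54.9 FPKM with a log2 difference of 0.85. The groups then no longer overlapped, and among all 13287 entries 25.7% did not overlap and were higher in WCE with these 2 tumors against 2. Averaged over the 6 tumors, the level of NTSR1 exceeded that of 89.9% of all 24000 entries and the level of NTS that of 55.5%.

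SORT1 encodes sortilin, a sorting receptor that also binds neurotensin and carries proteins between the Golgi and endosomes. Its level was the most even among the genes with a mean of at least 0.5 FPKM, at 8.64, 8.89 and 8.08 FPKM with vehicle and 8.39, 10.5 and 8.65 FPKM with WCE. The groups overlapped, with a log2 difference of 0.09 and a standard error of 0.11, and without WCE replicate 2 the difference was −0.0019. Without the nearly identical libraries it was 0.11. Of 5 other neurotensin and sorting receptors, 2 passed the filter and 0 had an unadjusted p under 0.05 by limma. SORL1, a sorting receptor related to sortilin, was between 20.8 and 33.5 FPKM in all tumors, and NTSR2, a second neurotensin receptor, was above 0 only in vehicle replicate 2, at 0.0435 FPKM. In these tumors NTSR1 was thus the G protein-coupled neurotensin receptor with a transcript well above 0.

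Among the 9 genes, the vesicle markers CHGA, CHGB, SCG2 and SYP were low or at 0 in both groups, while SCG5 was higher. Some listed vesicle genes outside the 9, such as STX1A and VAMP2, were also higher and are given below. CHGA and CHGB encode chromogranins A and B, acidic proteins that pack hormones into dense-core vesicles. CHGA was at 0.0385 and 0.0331 FPKM in vehicle replicates 1 and 2, which corresponds to 1 fragment each, and was listed at 0 in the other 4 tumors. CHGB was listed at 0 in all 6. SCG2, which encodes secretogranin II, a granin that gives rise to secretoneurin, measured 0.447, 0.333 and 0.406 FPKM with vehicle and 0.463, 0.408 and 0.289 FPKM with WCE. These SCG2 values corresponded to 15, 13, 21, 6, 18 and 12 fragments in the same order, and the groups overlapped.

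SYP encodes synaptophysin, a membrane protein of synaptic-like vesicles and a routine stain for neuroendocrine tumors. It measured 0.761, 0.843 and 1.11 FPKM with vehicle and 1.31, 0.723 and 0.794 FPKM with WCE, from between 16 and 54 fragments. The highest values were those of the nearly identical libraries, vehicle replicate 3 and WCE replicate 1, and the other 4 tumors lay within 0.723 and 0.843 FPKM. The log2 difference of SYP was 0.02 with a standard error of 0.16, and it changed sign with quantile normalization (−0.0087), with array weights (−0.071) and without the nearly identical libraries (−0.04). NCAM1, the adhesion molecule also called CD56 that marks neurons and natural killer cells, was between 0.00788 and 0.0985 FPKM, which corresponds to 1 to 10 fragments. Its highest tumor was WCE replicate 3 and its lowest vehicle replicate 3, and its listed locus is shared with another entry.

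**Figure D2:**
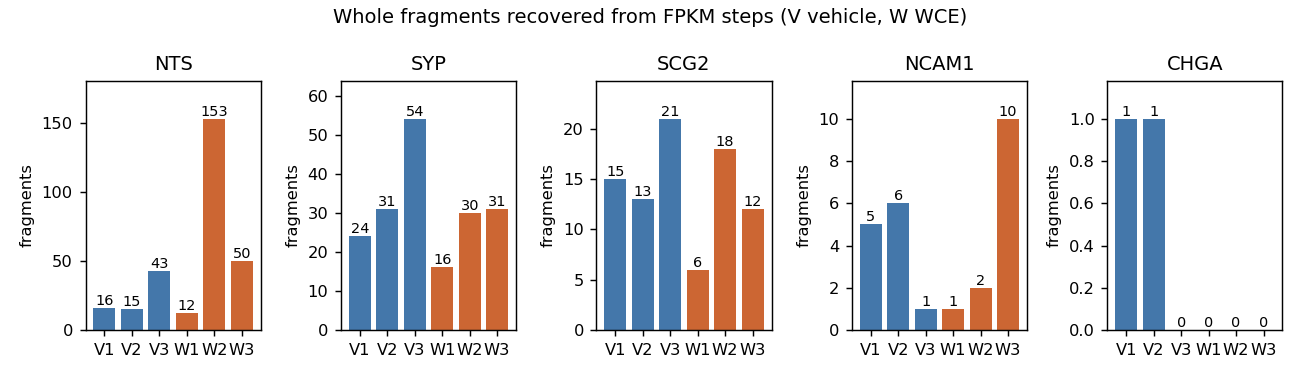
Whole fragments (vertical axes, linear, from 0) recovered from the FPKM steps of 5 genes in vehicle replicates 1 to 3 (V1 to V3, blue) and WCE replicates 1 to 3 (W1 to W3, orange), not scaled to depth. NTS had 153 fragments in WCE replicate 2 and at most 50 in any other tumor, while CHGA had 1 fragment in each of 2 tumors.

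SCG5 was the granin family member with the highest level among the 9 genes, and its WCE-treated tumors had the lower mean. It encodes the chaperone of the prohormone convertase PCSK2. SCG5 measured 3.99, 8.35 and 7.09 FPKM with vehicle and 5.89, 3.19 and 3.24 FPKM with WCE. WCE replicates 2 and 3 were the lowest tumors, but vehicle replicate 1 lay below WCE replicate 1, so the groups overlapped. The means were 6.48 ± 2.24 and 4.11 ± 1.54 FPKM (SD, n = 3 each), a ratio of 0.634 and a log2 difference of −0.54 with a standard error of 0.28. Without the nearly identical libraries the difference was −0.70 and the groups no longer overlapped, where 27.8% of all entries did not overlap and were lower in WCE. With array weights the SCG5 difference was −0.89. Whole fragments could not be recovered for SCG5, NTSR1 or SORT1. In bulk tumors, fewer cells of a type and less RNA per cell cannot be told apart.

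Ordered by the mean over the 6 tumors, the levels ran from NTSR1 through SORT1, SCG5, NTS, SYP, SCG2, NCAM1 and CHGA to CHGB. NTSR1 was above SORT1 in 6 of 6 tumors with no overlap of their ranges, and so was SYP above SCG2. SORT1 was above SCG5 in 6 of 6 tumors although their ranges overlapped. SCG5 was above NTS in 5 of 6 tumors, the exception being WCE replicate 2, so the order of SCG5 and NTS did not hold beyond their spread. The 5 genes from NTSR1 to SYP passed the filter of a mean of at least 0.5 FPKM, and SCG2, NCAM1, CHGA and CHGB did not.

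The tumors were also compared across the table, with limma on log2(FPKM + 1) and Benjamini-Hochberg adjustment over the 13287 entries that passed the filter. An adjusted p under 0.05 was found for 1 entry (0.00753%), the small nucleolar RNA SNORA76. It was listed at 46.5, 47.3 and 87.0 FPKM with vehicle and at 0 in each WCE-treated tumor. SNORA76 thus differed even between the nearly identical libraries, and the fragments behind its values are not known. An unadjusted p under 0.05 was found for 944 entries (7.1%), 502 of them higher (3.78%) and 442 lower (3.33%) in WCE-treated tumors. The share of higher entries among them was 53.2%, and 23.6% with upper-quartile scaling. Against this background, 8 lists of genes around neurotensin and neuroendocrine cells were read by their counts. Of their 136 genes, 73 passed the filter, 17 were listed at 0 in all 6 tumors, 0 had an adjusted p under 0.05, and 3 had an unadjusted p under 0.05, all 3 higher in WCE-treated tumors. Without the nearly identical libraries it was 12 of 73, with 9 higher and 3 lower. Among all entries 18.4% then had an unadjusted p under 0.05, 8.84% higher and 9.59% lower, and 5 entries (0.0376%) an adjusted one, while 0 of the 73 listed genes did.

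Among the genes listed for prohormone and peptide processing or for neurotensin breakdown, the convertase PCSK2 was the one at 0 in every tumor. Of 12 genes for prohormone and peptide processing, 7 passed the filter and 0 had an unadjusted p under 0.05, with a median log2 difference of −0.00064 against −0.0063 over all entries. The highest were PAM, the amidating enzyme, at 51.1 ± 8.09 and 51.7 ± 1.93 FPKM, and CPE, a carboxypeptidase that trims basic residues, at 40.8 ± 5.62 and 34.8 ± 8.66 FPKM (SD, n = 3 each). The convertases PCSK7 and FURIN were between 11.9 and 21.9 FPKM in all tumors. PCSK2, whose chaperone SCG5 encodes, was listed at 0 in all 6 tumors, and PCSK1 was at most 0.0354 FPKM. Among 6 neurotensin-degrading peptidases, 6 passed the filter and 0 had an unadjusted p under 0.05, with a median log2 difference of −0.050. NLN, which encodes neurolysin, measured 4.42, 3.03 and 2.68 FPKM with vehicle and 2.23, 2.53 and 2.50 FPKM with WCE, without overlap (log2 difference −0.34, unadjusted p = 0.0734 and adjusted p = 0.623 by limma). Groups did not overlap in 12.8% of all entries, lower in WCE in 6.4%.

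Downstream of NTSR1, 18 genes of Gq and protein kinase C signaling were listed, of which 15 passed the filter and 0 had an unadjusted p under 0.05. Their median log2 difference was 0.087. RGS2, which encodes an inhibitor of Gq signaling, was the most abundant, at 260, 354 and 234 FPKM with vehicle and 234, 680 and 504 FPKM with WCE. WCE replicates 2 and 3 of RGS2 were above all other tumors and WCE replicate 1 matched vehicle replicate 3, with a log2 difference of 0.63 (unadjusted p = 0.126 and adjusted p = 0.626 by limma). Without these nearly identical libraries the RGS2 difference was 0.95, with an unadjusted p of 0.00725 and an adjusted p of 0.183 by limma. Of the Gq proteins, GNA11 was between 10.5 and 19.5 FPKM and GNAQ between 0.366 and 0.888 FPKM.

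The 3 listed genes with an unadjusted p under 0.05 were ENO2, STX1A and GNAS. ENO2 encodes neuron-specific enolase, a glycolytic enzyme and serum marker of neuroendocrine tumors. It measured 35.6, 36.9 and 60.5 FPKM with vehicle and 56.8, 76.8 and 88.8 FPKM with WCE, and only the nearly identical libraries overlapped. Its log2 difference was 0.75 ± 0.24 (standard error), and limma gave an unadjusted p of 0.0143 and an adjusted p of 0.623. Without these libraries it was 1.17, with an adjusted p of 0.133 by limma. STX1A, which encodes a syntaxin that fuses vesicles with the membrane, was at 36.2, 44.5 and 51.5 against 53.5, 78.6 and 69.2 FPKM, without overlap (log2 difference 0.59, unadjusted p = 0.0109 and adjusted p = 0.623 by limma). Its margin was that between the nearly identical libraries, and 6.37% of all entries that passed the filter did not overlap and were higher in WCE.

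GNAS, which encodes the stimulatory G protein subunit and shares its locus with a granin-like protein, was at 802, 786 and 899 against 901, 1218 and 1129 FPKM (log2 difference 0.38, unadjusted p = 0.0299 and adjusted p = 0.623 by limma). The margin between its groups was again that between vehicle replicate 3 and WCE replicate 1. The listed loci of STX1A and GNAS are each shared with another entry. Without these nearly identical libraries the log2 difference was 0.86 for STX1A and 0.56 for GNAS. ENO2 and STX1A are 2 of the 19 vesicle and neuroendocrine markers that passed the filter out of 35 listed, whose median log2 difference was 0.13. Next in level were TUBB3 at 42.6 ± 1.65 and 40.9 ± 1.53 FPKM and VAMP2 at 18.4 ± 2.07 and 22.5 ± 3.57 FPKM (vehicle and WCE, SD, n = 3 each). GNAS is 1 of 3 that passed among 4 genes listed as other granins, whose median was 0.035. Its gene-level value does not separate the granin-like product from the G protein subunit. On the same list SCG3, a granin that sorts vesicle cargo, was at 0 in all tumors. PCSK1N, also on that list, was at 13.4 ± 3.82 FPKM with vehicle and 13.5 ± 2.41 FPKM with WCE (SD, n = 3 each).

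**Figure D3:**
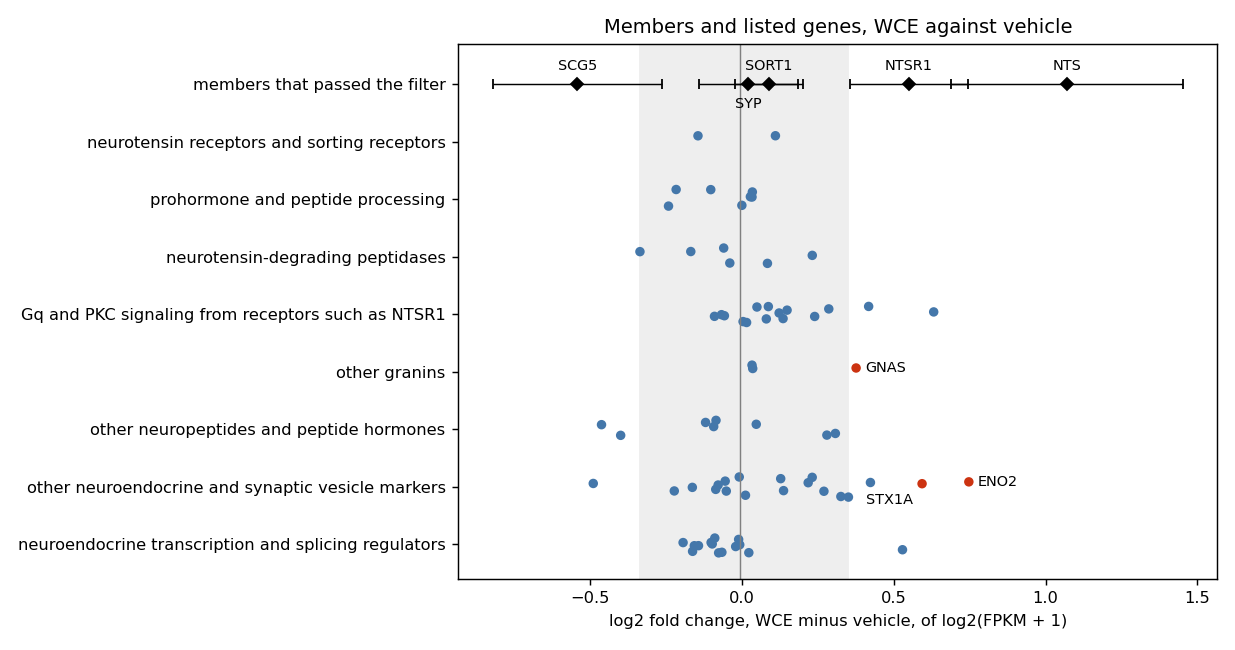
Log2 differences of log2(FPKM + 1), WCE minus vehicle (horizontal axis), of the 5 genes that passed the filter (black diamonds with their standard error) and of the listed genes (points, red at an unadjusted p under 0.05). The gray band spans the 5th to 95th percentile of all 13287 entries, from −0.34 to 0.35. GNAS, STX1A and ENO2 are the red points. The place of NTS, at 1.07, is given by how it was chosen. The other 4 diamonds also belong to genes proposed from this contrast, so none of the 5 is set against the listed genes.

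Regulators tied to neuroendocrine prostate cancer were mostly low, with 20 of 33 under a mean of 1 FPKM, but some were abundant. The highest of the list were HES1, YAP1, PEG10 and AURKA, with means over the 6 tumors of 59.2, 56.2, 48.2 and 45.4 FPKM. Of 33 listed regulators 6 were at 0 in all tumors, among them NEUROD2, NEUROG3, INSM1, NKX2-2 and the splicing factor SRRM4, and 14 passed the filter. REST, the repressor of neuronal genes, was between 12.2 and 14.4 FPKM in all 6 tumors (log2 difference 0.02). None of the 14 had an unadjusted p under 0.05 or an adjusted one by limma, and their median log2 difference was −0.084. FOXA2, a pioneer factor of endoderm, was between 7.16 and 8.07 FPKM with vehicle and between 7.17 and 15.9 FPKM with WCE (log2 difference 0.53, unadjusted p = 0.0664 and adjusted p = 0.623 by limma). As with NTSR1 and RGS2, WCE replicates 2 and 3 stood above the rest.

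Several other peptide hormones were transcribed at higher levels than NTS. Of 24 listed, 8 were at 0 in all tumors, among them GRP, CALCA and SST, and 8 passed the filter with 0 at an unadjusted p under 0.05 by limma and a median log2 difference of −0.090. PTHLH, the parathyroid hormone-related peptide, was the highest at 189 ± 27.4 and 148 ± 73.2 FPKM, followed by ADM at 25.4 ± 10.5 and 30.8 ± 8.09 FPKM, NPY at 22.3 ± 2.48 and 31.0 ± 20.4 FPKM and GAL at 19.2 ± 11.6 and 16.1 ± 4.63 FPKM (SD, n = 3 each). Each of these 4 peptides had a mean level above that of NTS in both groups. NPY was at 54.3 FPKM in WCE replicate 3 and at most 25.2 FPKM in any other tumor, so the tumor that stood out for NPY was not the one that stood out for NTS.

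The 5 entries with the pattern nearest to NTS, by the root mean square difference of centered log2(FPKM + 1) values over the 6 tumors among 12049 entries, were LOC146336, HSPG2, EYA1, NFATC2 and PLCH2, with differences from 0.275 to 0.315. The median over all these entries was 0.753, and an entry that did not vary at all would differ from NTS by 0.736. HSPG2, the basement membrane proteoglycan perlecan, measured 14.5, 20.7 and 26.3 FPKM with vehicle and 26.2, 59.1 and 40.1 FPKM with WCE. EYA1, a transcriptional coactivator, reached 3.34 FPKM in WCE replicate 2 and stayed at or below 1.67 FPKM elsewhere. PLCH2, a phospholipase C, reached 19.1 FPKM in WCE replicate 2 and 14.1 FPKM in WCE replicate 3. All 5 entries had their highest value in WCE replicate 2, as NTS did, which follows from picking them by their nearness to NTS. The loci of LOC146336, HSPG2 and NFATC2 are each shared with another entry.

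**Figure D4:**
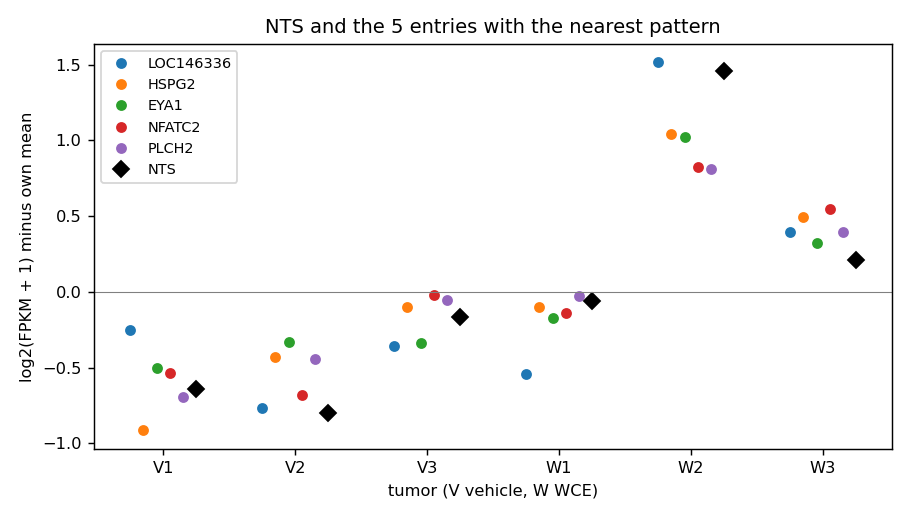
Log2(FPKM + 1) minus each entry's own mean (vertical axis) in vehicle replicates 1 to 3 (V1 to V3) and WCE replicates 1 to 3 (W1 to W3), for NTS (black diamonds) and the 5 entries with the nearest pattern (colored points, shifted sideways for legibility). In each of the 6 the highest point is WCE replicate 2, which follows from picking the 5 entries by their nearness to NTS.

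Marker genes of the line and of other cell types were read in the same tumors by their human symbols. The host is a mouse and the handling of mouse reads is not known, so these values are not shown to measure host cells. KLK2 and KLK3 were listed at 0 throughout, and EPCAM, KRT8, KRT18 and VIM were above 100 FPKM in each tumor. EPCAM had means of 247 ± 60.2 with vehicle and 147 ± 29.6 FPKM with WCE, without overlap. The EPCAM margin was that between the nearly identical libraries, at 185 and 180 FPKM. The means of VIM (356 ± 71.4 and 473 ± 86.6 FPKM), KRT8 (225 ± 30.9 and 231 ± 12.8 FPKM) and KRT18 (282 ± 40.5 and 301 ± 11.6 FPKM) were higher with WCE (SD, n = 3 each). Groups did not overlap, lower in WCE, in 6.4% of all entries that passed the filter. The summed level of 8 endothelial genes ranged from 1.47 to 4.20 FPKM with vehicle and from 3.79 to 9.13 FPKM with WCE. In this list 5 of 8 genes were under 1 FPKM in every tumor, with EMCN at 0 in all tumors and CDH5 under 0.1 FPKM. KDR and TIE1 were highest in WCE replicates 2 and 3, and PECAM1 was at 0.860, 2.95 and 2.61 FPKM with vehicle against 2.48, 2.05 and 2.37 FPKM with WCE. ERG was lower in each WCE-treated tumor than in any vehicle-treated one, at most 0.183 FPKM throughout. Its margin was that between the nearly identical libraries, at 0.0504 and 0.0405 FPKM. Of the entries that passed the filter, which ERG did not, 6.4% were lower in WCE without overlap. The 8 nerve and Schwann cell genes summed to 51.6 to 60.3 FPKM with vehicle and 58.9 to 75.1 FPKM with WCE, with S100B at 0 in all 6 and SOX10 at 0 in 5. The higher sum came from PMP22, a myelin gene with means of 33.7 ± 5.81 and 47.2 ± 10.6 FPKM, while MBP, NGFR and ERBB3 had the lower mean with WCE (SD, n = 3 each). The 8 fibroblast and pericyte genes summed to 55.4 to 64.1 against 48.6 to 77.8 FPKM, and 3 of them were under 1 FPKM in every tumor. Within this list PDGFRA reached 32.6 and 20.7 FPKM in WCE replicates 2 and 3 and at most 11.02 FPKM elsewhere, COL1A1 was lowest in WCE replicate 2 at 10.4 FPKM, and LUM had means of 1.89 ± 1.27 and 0.496 ± 0.167 FPKM (SD, n = 3 each). The 8 myeloid genes summed to 25.8 to 41.4 against 40.4 to 44.7 FPKM, nearly all of it CD68, with the other 7 under 1 FPKM in every tumor and TYROBP at 0. The part of other cell types in the levels of NTS, NTSR1 and SCG5 was not tested.

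**Figure D5:**
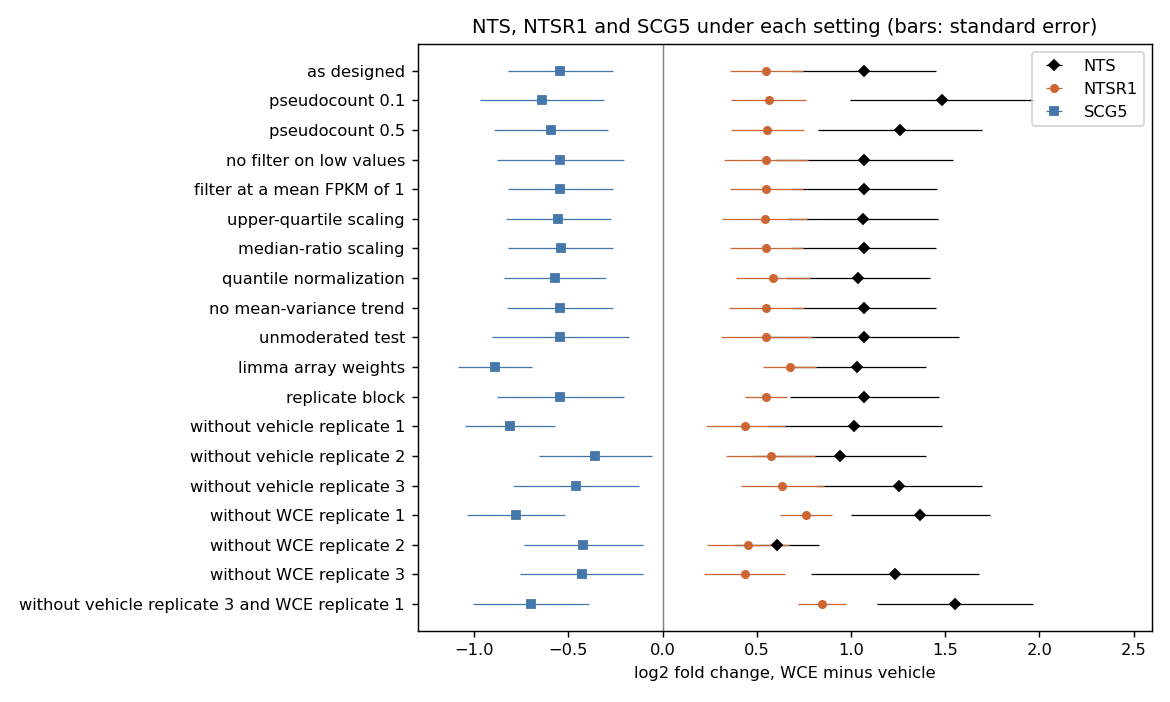
Log2 difference, WCE minus vehicle (horizontal axis), of NTS (diamonds), NTSR1 (circles) and SCG5 (squares) under each setting (vertical axis), with standard errors as bars. NTS stayed between 0.61 and 1.55, NTSR1 between 0.44 and 0.85, and SCG5 between −0.89 and −0.36. All settings use the same tumors and the genes were proposed from this contrast, so nothing is read from the constant signs.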

How the data were processed

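The authors deposited 1 table of FPKM values per gene entry, with a column for each of the 6 tumors, which the labels map by their sample numbers. Per the labels, libraries came from a stranded mRNA kit. The submitters' processing notes name TopHat2 2.0.13, Cufflinks and the builds hg19 and mm10 without their roles. The annotation, the strand setting, the handling of mouse reads and any scaling between tumors are not given in the sources used here. Table loci are taken as hg19 and were counted from 1. The starts of 0 of the 9 genes equaled those of GRCh38.

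A linear model with a mean-variance trend (limma 3.58.1 under R 4.3.3, two-sided) was fitted to log2(FPKM + 1) of all entries whose mean reached 0.5 FPKM, with Benjamini-Hochberg adjustment and a threshold of 0.05. With 3 tumors against 3, the smallest p of an exact permutation test is 0.1. The labels do not say that the tumors came from separate mice, so p-values measure only the spread between these samples. The 9 genes and the lists were chosen with earlier results of these data known. From each list the 4 genes of highest level and those with an unadjusted p under 0.05 could be named, and FOXA2, REST, SNORA76, the cell type markers, the genes at 0 and the other low genes were named after their values were seen. Patterns near NTS were sought among entries with 1 symbol and a mean of at least 1 FPKM.

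Intervals for counting error were left out because the absolute depth is not known. Relative depth came from 1387 entries with a single start site whose values were whole multiples of a common step. Fragments of a gene are the smallest whole numbers within 0.1 of a fragment in every tumor, with at most 20 in the lowest tumor. Symbols were matched exactly or, for MYCL, by an older symbol. The linear model and the estimate of relative depth were tested on simulated data. Python 3.11.15, numpy 2.4.6, pandas 2.3.3 and matplotlib 3.10.9 were used. The alternatives were the pseudocount, filter, scaling, trend, moderation, array weights, a replicate block and tumors left out.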

Additional observations from a re-analysis of the deposited data

How the results depend on the processing

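Under the 18 alternatives the NTS difference was from 1.03 to 1.48 on the log2 scale with all 6 tumors. It was from 0.61 to 1.37 with 1 tumor left out, and 1.55 without vehicle replicate 3 and WCE replicate 1. Leaving tumors out could not change its direction, because the NTS groups did not overlap. The NTSR1 difference stayed above 0 and that of SCG5 below 0 under all 18. These alternatives rework the same tumors and the genes were proposed from this contrast, so nothing is read from the constant signs. SORT1 changed sign under 1 alternative and SYP under 6 of 17, at sizes within the spread between tumors. The count of entries with an adjusted p under 0.05 was 1, and it was 0 when low entries were kept or when the test was unmoderated, 5 without the nearly identical libraries, and from 1 to 7 with 1 tumor left out. The count at an unadjusted p under 0.05 was 944, and it was 593 with the unmoderated test, 3201 with array weights, 2449 without the nearly identical libraries, and from 219 (without WCE replicate 3) to 2033 (without WCE replicate 1) with 1 tumor left out. Of the listed genes 3 had an unadjusted p under 0.05, against 0 with the unmoderated test, 16 with array weights, 12 without the nearly identical libraries, and from 1 to 11 with 1 tumor left out. The cause was not tested. Upper-quartile scaling moved the share of higher entries among those at an unadjusted p under 0.05 from 53.2% to 23.6%, and under it 2 listed genes were higher and 0 lower.

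With the replicate number as a block the counts were 1, 1049 and 4, and NTS stayed at 1.07. Tumors with the same number correlated at −0.24, 0.16 and −0.093 in their deviations from the group means. These 3 values rest on means of 3 tumors that include the nearly identical libraries. They cannot settle whether the numbers pair the tumors. The 3 tumors a group and the unknown absolute depth limit the precision of all values.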
